A study of Mus musculus with 6 samples.

Results

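Blood and lymphatic endothelium, the cell layer that lines blood vessels and lymphatic vessels, was followed in mouse intestine through 10 genes: Pecam1, Cdh5, Kdr, Flt1, Tek, Vwf, Egfl7, Flt4, Lyve1 and Prox1. The genes were taken by name from 1 table of 32219 genes, and all 10 were present and were above 0 in at least 3 of the 5 libraries compared, as were 22047 genes in all. The series holds 6 RNA-seq libraries of polyadenylated RNA from whole intestinal tissue, 3 with the genotype label WT (WT 1 to WT 3) and 3 with the label KO (KO 1 to KO 3). The series text names the duodenum, and the cell type label names epithelial cells, immune cells and enteric neurons, with no mention of vessels. The 5 libraries compared had the ileal gene Fabp6 at 8.16 to 8.76 and Gata4, a factor of the proximal small intestine, at 0.43 to 0.63. Their values are thus not described here as duodenal. The knocked-out gene, the strain, age and sex of the mice, and whether each library is 1 animal are not stated in the labels. Every p-value therefore rests on the variation among libraries, some of which may be technical. Dhx9, which the series title names, was at 5.94 to 6.01 in WT, 6.17 in KO 2 and 6.08 in KO 3. Ffar3, also named there, was low, at 0.18 to 0.60 in WT, 0.36 in KO 2 and 0.59 in KO 3. These values do not identify the knocked-out gene.

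Endothelial cells are held together by adhesion molecules such as PECAM1 and VE-cadherin, and they respond to vascular endothelial growth factors (VEGF) and angiopoietins through receptor tyrosine kinases. VEGFA signals through the receptors encoded by Flt1 and Kdr, and VEGFC acts mainly on the receptor encoded by Flt4, which drives growth of lymphatic vessels. In the small intestine, the villus holds a capillary network beneath the epithelium and a central lymphatic vessel, the lacteal, which carries absorbed fat away. PROX1 is the transcription factor that sets lymphatic identity, and LYVE1 is a hyaluronan receptor on lymphatic endothelium. Several of these genes are also active outside vessels: Pecam1 in leukocytes and platelets, Vwf in megakaryocytes and platelets, Lyve1 in some macrophages, and Prox1 in enteroendocrine cells and other cells of the gut wall.

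Values are the deposited logs, taken here as log2(abundance + 1), and a difference of 1 on this scale is a change of 2-fold in genes well above 0. KO 1 lists 0 for every gene above 1 on chromosomes 2 to 9, X and M and on most of chromosome 19, and those zeros were treated as missing. Of the 10 genes, KO 1 covers 3, Pecam1, Flt4 and Prox1, and there its linear values were divided by 2.12 to bring covered genes to the scale of the other libraries. KO 1 was left out of the comparison of KO with WT, which therefore set KO 2 and KO 3 against the 3 WT libraries. The 5 libraries also differed in sex: WT 2 and KO 2 had the Y-linked gene Eif2s3y at 4.97 and 4.66 and Xist, the RNA of the inactive X chromosome, at 0.20 and 0.21, whereas WT 1, WT 3 and KO 3 had Xist at 6.85 to 7.25 and Eif2s3y at 0.03 or lower. KO 1 does not cover Xist. It lists 0 for Eif2s3y, but chromosome Y held only 4 genes above 1, too few to judge coverage there, so the sex of KO 1 was not read. Depth is unknown for all 6 libraries. In bulk tissue, fewer endothelial cells and less RNA per cell cannot be told apart.

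The 4 receptor tyrosine kinase genes among the 10 lie on 3 chromosomes, and their promoter sequences, from RefSeq on GRCm38.p6, are shown as a description. WT 2 was the highest of the 5 libraries for all 4 receptors, as for 8 of the 10 genes in all. The part of promoter sequence in this was not tested. Each window runs 5′ to 3′ on the strand of the gene, from 250 bases before to 50 after the start, and capitals mark GGAA or its reverse complement TTCC, the core that transcription factors of the ETS family, such as ERG and FLI1, bind.
Kdr promoter, chr5:75978406-75978705: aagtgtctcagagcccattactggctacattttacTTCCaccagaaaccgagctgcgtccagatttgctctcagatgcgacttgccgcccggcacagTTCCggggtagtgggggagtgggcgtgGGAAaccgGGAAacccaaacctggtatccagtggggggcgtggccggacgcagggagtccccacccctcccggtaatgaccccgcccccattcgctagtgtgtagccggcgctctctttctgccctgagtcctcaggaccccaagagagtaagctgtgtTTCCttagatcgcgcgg
Flt1 promoter, chr5:147725962-147726261: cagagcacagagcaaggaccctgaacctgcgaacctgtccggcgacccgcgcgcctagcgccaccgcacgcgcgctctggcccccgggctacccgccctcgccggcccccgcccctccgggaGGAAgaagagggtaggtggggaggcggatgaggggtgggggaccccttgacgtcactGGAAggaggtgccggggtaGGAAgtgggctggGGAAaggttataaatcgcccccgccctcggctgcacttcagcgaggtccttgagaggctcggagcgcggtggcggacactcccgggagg
Flt4 promoter, chr11:49609429-49609728: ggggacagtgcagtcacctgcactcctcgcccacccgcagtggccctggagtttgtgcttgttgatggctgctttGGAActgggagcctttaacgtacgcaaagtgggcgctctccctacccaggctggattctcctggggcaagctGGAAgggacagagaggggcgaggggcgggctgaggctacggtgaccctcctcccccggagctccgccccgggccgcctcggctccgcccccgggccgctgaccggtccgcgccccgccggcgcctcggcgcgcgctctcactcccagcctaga
Tek promoter, chr4:94739039-94739338: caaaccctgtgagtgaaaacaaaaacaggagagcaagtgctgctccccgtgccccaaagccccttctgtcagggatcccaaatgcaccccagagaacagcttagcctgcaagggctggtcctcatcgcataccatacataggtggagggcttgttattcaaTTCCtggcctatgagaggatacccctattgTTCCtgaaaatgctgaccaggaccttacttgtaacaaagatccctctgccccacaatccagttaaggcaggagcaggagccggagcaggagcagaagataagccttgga
Counted on both strands, GGAA occurred 5 times in the Kdr window, on the minus strand of the chromosome, and 4 times in that of Flt1, also on the minus strand. It occurred 2 times in the windows of Flt4 and Tek, both on the plus strand. Of 32851 promoter windows of 300 bases, 96% held at least 1 GGAA, with a median of 3, and 28.6% held 5 or more, so the core by itself did not set these promoters apart. The longer GGAAG, which overlaps the same matches, occurred 3 times in the Flt1 window, a count that 16.5% of all windows reach, 1 time in those of Kdr and Flt4, and not in these letters in that of Tek. Promoter windows were found for 6 of the 10 genes.

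No difference between KO and WT in these genes was larger than the spread of the libraries allowed to be called. By limma with Benjamini-Hochberg adjustment, 0 of the 10 passed an adjusted p of 0.05, each with an adjusted p = 0.99998, and 0 had an unadjusted p under 0.05. Over all 22047 genes, 1 passed (0.00454%), the predicted gene Gm49380, so these libraries gave almost no calls anywhere. Of the 10 genes, 6 were lower and 4 higher in KO, with a median log2 difference of -0.07, beside 38.9% lower and a median of 0.03 over all genes tested. The groups overlapped for all 10, whereas 13.6% of all genes had groups that did not overlap. The 95% intervals put bounds on what could have been missed, if the logs are of base 2 as assumed. The interval of the KO to WT ratio of abundance + 1 then ran from 0.64 to 1.13 for Egfl7, the gene with the largest difference. It ran from 0.72 to 1.60 for Pecam1, the gene with the widest interval. The added 1 draws such ratios towards 1, most in genes of low level. If the logs are natural, these bounds are wider. The log2 differences would then be -0.34 ± 0.24 (SE) for Egfl7 and 0.14 ± 0.34 (SE) for Pecam1.

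**Figure D1:**
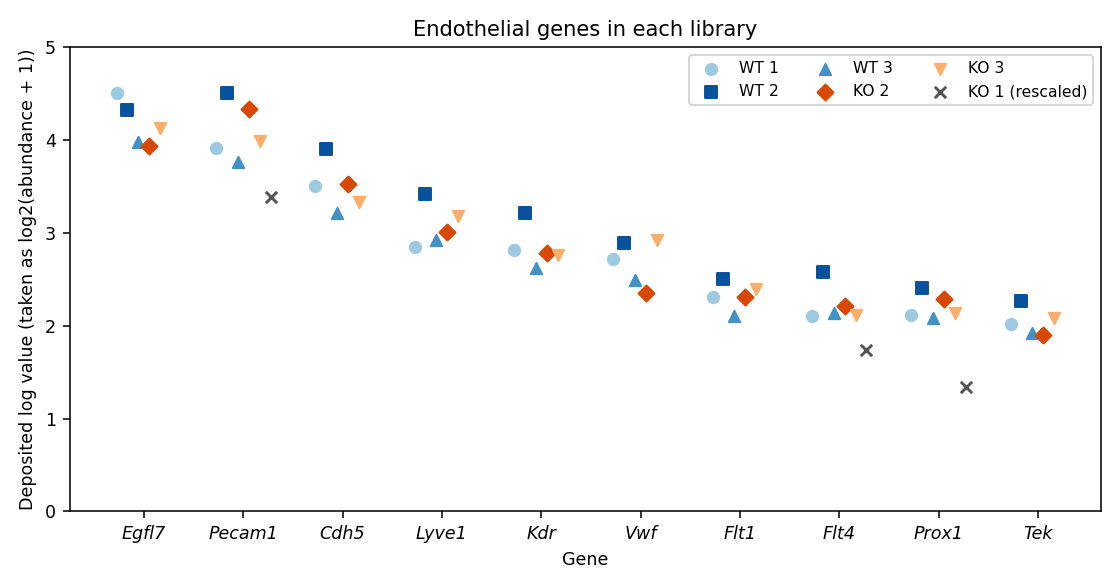
Deposited log values (vertical axis, taken as log2(abundance + 1)) of the 10 genes (horizontal axis, ordered by their median over 5 libraries) in each library; crosses are KO 1 after rescaling, for the 3 genes it covers. WT 2 (dark squares) is the highest library for 8 of the 10 genes, and the KO 1 crosses lie below all other libraries for Pecam1, Flt4 and Prox1.

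The receptors for VEGF were examined first. Kdr (chromosome 5, 75932827 to 75978458), the main signalling receptor for VEGFA on blood endothelium, was at 2.81, 3.21 and 2.62 in WT 1, WT 2 and WT 3, while KO 2 was at 2.78 and KO 3 at 2.76; values of the other genes are given in the same order. Both KO libraries lay inside the WT range and close to WT 1. The difference was -0.11 ± 0.20 (SE). Flt1 (chromosome 5, 147561604 to 147726011), whose product binds VEGFA tightly and limits its signal, was at 2.31, 2.51 and 2.10 in WT and at 2.31 and 2.39 in KO. WT 2 was again the highest library and WT 3 the lowest, and the difference was 0.05 ± 0.17 (SE). Flt4 (chromosome 11, 49609263 to 49652739), the VEGFC receptor of lymphatic endothelium, was at 2.10, 2.58 and 2.14 in WT and at 2.21 and 2.11 in KO, with a difference of -0.11 ± 0.19 (SE). WT 2 stood alone, and the other 4 libraries lay within a narrow band. The gap between Flt4 and Kdr was nearly constant: Flt4 minus Kdr was between -0.71 and -0.48 over the 5 libraries and averaged -0.61 in both groups.

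Tek (chromosome 4, 94739289 to 94874976), which encodes the angiopoietin receptor TIE2, was at 2.02, 2.26 and 1.92 in WT and at 1.90 and 2.09 in KO. KO 2 was the lowest library and KO 3 lay within the WT range, with a difference of -0.07 ± 0.17 (SE). Of the 8 other genes of the angiopoietin and TIE pathway, 3 were higher and 5 lower in KO, 0 passed by limma, and the median difference was -0.03. The ligand gene Angpt1 was low throughout, at 0.74 to 1.01 in WT and at 0.83 and 0.66 in KO (difference -0.13 ± 0.12, SE). Svep1, an extracellular matrix protein needed for lymphatic growth, was at 3.28 to 3.55 in WT and at 3.30 and 3.23 in KO. Of the 9 VEGF ligand and co-receptor genes in the table, 3 were higher and 6 lower, and 0 passed. The member with the smallest p was Nrp2, a co-receptor for VEGFC, at 4.46, 4.84 and 4.31 in WT, with KO 2 at 4.33 and KO 3 at 4.51 (difference -0.12 ± 0.17, SE). Vegfb, a ligand of the Flt1 product, was at 3.31 to 3.73 in WT and at 3.21 and 3.49 in KO.

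The 2 adhesion genes had the widest ranges over the 5 libraries, 0.74 for Pecam1 and 0.69 for Cdh5. Pecam1 (chromosome 11, 106654217 to 106750628) was at 3.91, 4.51 and 3.77 in WT and at 4.34 and 3.99 in KO, with a difference of 0.10 ± 0.24 (SE). Its 2 highest libraries, WT 2 and KO 2, were the 2 with Y-linked transcripts. Cdh5 (chromosome 8, 104101625 to 104144511), which encodes VE-cadherin, was at 3.51, 3.91 and 3.22 in WT and at 3.53 and 3.33 in KO, with a difference of -0.12 ± 0.21 (SE). The same libraries were the 2 highest for Cdh5, Flt4 and Prox1, but for Cdh5 KO 2 was close to WT 1. Pecam1 minus Cdh5 was 0.81 in KO 2 and 0.41 to 0.66 in the other 4 libraries. Ptprc, the CD45 gene carried by leukocytes, where Pecam1 is also active, stood at 5.03 in WT 2 and 5.52 in KO 2 and at 3.519 to 4.001 in WT 1, WT 3 and KO 3. Its part in the Pecam1 values was not tested.

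Vwf and Egfl7 departed most from the rest. Vwf (chromosome 6, 125546774 to 125686679), the clotting protein stored in endothelial granules, was at 2.72, 2.89 and 2.49 in WT and at 2.36 and 2.93 in KO. The 2 KO libraries were the lowest and the highest of the 5, and the difference was -0.05 ± 0.22 (SE). Of 10 platelet and megakaryocyte genes, 7 were tested and 0 passed; the 3 not tested, Ppbp, Gp6 and Treml1, were above 0 in at most 2 of the 5 libraries. The summed linear level of the 7 was 7.54 in KO 2 and 9.46 in KO 3, with 8.74 to 10.89 in WT; its part in the Vwf values was not tested. Egfl7 (chromosome 2, 26580014 to 26593120), a secreted protein of endothelial cells whose gene also hosts the microRNA miR-126, was at 4.51, 4.32 and 3.98 in WT and at 3.94 and 4.13 in KO. WT 1 was its highest library, unlike any of the other genes, and the difference was -0.24 ± 0.17 (SE). Egfl7 shares 64 exon bases with Agpat2 on the opposite strand and 264 with the same-strand gene Gm20532, so reads may have been split among them.

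For the lymphatic genes Lyve1 and Prox1 the groups overlapped as well. Lyve1 (chromosome 7, 110850607 to 110863239) was at 2.85, 3.42 and 2.93 in WT and at 3.01 and 3.18 in KO, with a difference of 0.03 ± 0.20 (SE). Both KO libraries lay between WT 3 and WT 2. Prox1 (chromosome 1, 190118035 to 190170714) was at 2.11, 2.40 and 2.09 in WT and at 2.29 and 2.13 in KO, with a difference of 0.01 ± 0.17 (SE), the smallest of the 10. Prox1 shares 133 exon bases with the antisense gene Prox1os. Within a library, Lyve1 minus Cdh5 was -0.66, -0.49 and -0.29 in WT and -0.52 and -0.15 in KO, so the groups overlapped. Of 16 further lymphatic genes, 5 were higher and 11 lower in KO, 0 passed, and the median difference was -0.07. Ccl21a, which encodes a chemokine that draws in dendritic cells, varied most, at 2.96, 4.29 and 3.38 in WT and at 3.84 and 2.26 in KO (difference -0.49 ± 0.55, SE). Its highest libraries, WT 2 and KO 2, were also the highest for the leukocyte gene Ptprc, at 5.03 and 5.52. The part of lymphoid tissue in the Ccl21a values was not tested.

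The summed linear level of 12 macrophage markers, which could carry part of the Lyve1 signal, was 69.57 to 117.04 in WT, 105.34 in KO 2 and 62.44 in KO 3. KO 3 was the lowest of the 5 libraries for this sum. Of the 12 markers, 4 were higher and 8 lower in KO, and 0 passed. Folr2, which marks macrophages that can also carry LYVE1, was at 0.67, 1.55 and 0.70 in WT and at 0.44 and 0.39 in KO (difference -0.56 ± 0.28, SE, limma adjusted p = 0.99998). Timd4 went the other way, at 0.57, 1.10 and 0.63 in WT and at 1.09 and 0.74 in KO (difference 0.15 ± 0.20, SE). The summed level of 10 enteroendocrine markers, beside which Prox1 may be read, was 77.50 to 86.99 in WT and 92.09 and 77.73 in KO. Gcg, the highest of the 10, weighed most in that sum, at 5.37 to 5.59 in WT, 5.85 in KO 2 and 5.16 in KO 3. By median deviation the 10 markers were instead highest in KO 3, at 0.12, against 0.03 in KO 2 and -0.05 to 0.02 in WT. For 8 glial markers the sum was 9.23 to 11.91 in WT and 8.12 and 8.97 in KO. The part of the macrophage, enteroendocrine and glial markers in the Lyve1 and Prox1 values was not tested.

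The 10 genes varied together over the libraries. WT 2 was the highest library for 8 of them, all but Vwf and Egfl7, where WT 2 came second; over all genes tested WT 2 was highest for 21.8%. The excess of WT 2 over the mean of the other 4 libraries ranged from 0.18 for Egfl7 to 0.51 for Cdh5. WT 3 was the lowest library for 5 genes, KO 2 for 3 and WT 1 for 2. The median deviation of the 10 from their own 5-library means was 0.28 in WT 2 and -0.19 in WT 3, and it was -0.02 in WT 1, -0.04 in KO 2 and -0.06 in KO 3. After that median was subtracted, the spread of Kdr over the libraries shrank from 0.60 to 0.12 and that of Cdh5 from 0.69 to 0.24, while that of Vwf (0.57 before, 0.59 after) and Egfl7 (0.57 and 0.56) did not shrink by more than 0.02. These are descriptions of 5 libraries, and genes that share a library are not replicates of it.

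**Figure D2:**
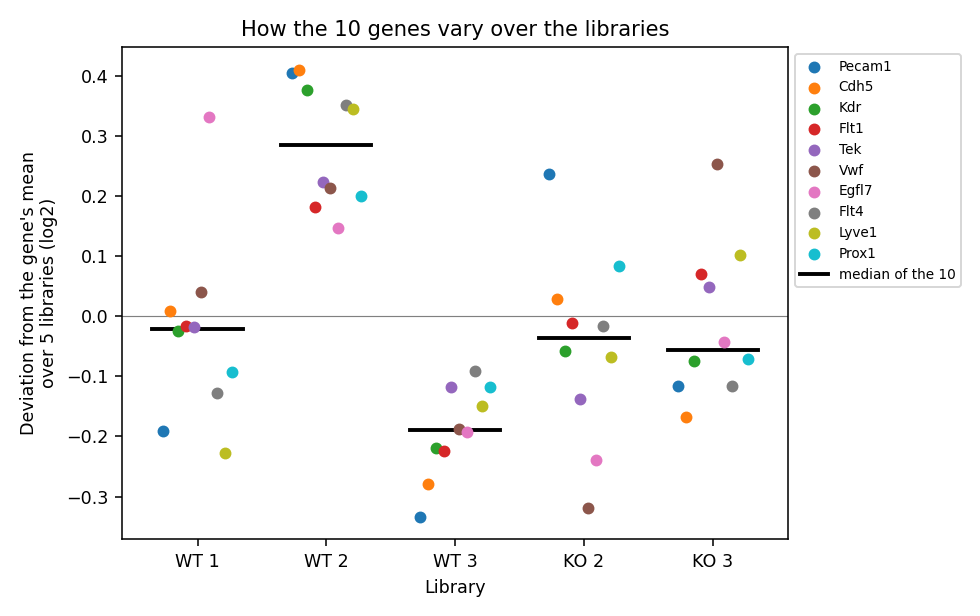
Deviation of each of the 10 genes from its own mean over 5 libraries (vertical axis, log2) by library (horizontal axis); each point is 1 gene and each black bar the median of the 10. All 10 genes lie above 0 in WT 2 and below 0 in WT 3, while KO 2 and KO 3 hold genes on both sides of 0.

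The sign of the difference depended on the libraries included. Leaving out WT 2 turned it for 5 of the 10 genes (Kdr, Flt4, Tek, Cdh5 and Vwf), and leaving out WT 3 turned it for 4 others (Flt1, Pecam1, Lyve1 and Prox1). Without KO 2, WT 1 or KO 3 it turned for 4, 2 and 1 of the 10. Without WT 2, 9 genes were higher in KO (64.5% of all genes tested), with a median difference of 0.06 beside 0.04 over all genes, and Egfl7 was lower, at -0.21. Without WT 3, all 10 were lower in KO (41.9% of all genes). None of the 10 passed by limma in any of these 5 fits. Fibroblast, mural, macrophage and red blood cell markers were also high in WT 2, with median deviations of 0.42, 0.28, 0.39 and 0.73, whereas epithelial markers were at -0.19. The part of these cell types in the endothelial values was not tested.

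The libraries were also compared within each sex. Among libraries with Y-linked transcripts, KO 2 was below WT 2 for 10 of 10 genes (46.1% of all genes tested), by 0.12 for Prox1 to 0.53 for Vwf. This count adds nothing to the high values of WT 2 described above. WT 2 was the highest library for 8 of the 10, and only KO 3 exceeded it for Vwf and only WT 1 for Egfl7. Among libraries with Xist, KO 3 was above the mean of WT 1 and WT 3 for 7 of 10 genes, a share near the 59.6% over all genes, with values from -0.11 for Egfl7 to 0.33 for Vwf; Cdh5 and Flt4 were also below that mean, at -0.03 and -0.007. For 6 genes, Pecam1, Flt1, Tek, Vwf, Lyve1 and Prox1, KO 2 was below WT 2 while KO 3 was above both WT 1 and WT 3, a pattern that 23.9% of all genes showed. Each side rests on 1 KO library, and the side with Y-linked transcripts also on 1 WT library, WT 2, whose high values enter the interaction below. The interaction of genotype and sex, fitted by limma with 1 residual degree of freedom besides the pooled spread, had an unadjusted p of 0.046 for Lyve1 (-0.70 ± 0.23, SE) and 0.053 for Vwf (-0.86 ± 0.30, SE), the 2 smallest of the 10. Both had an adjusted p of 0.875 by limma, and 0 of 22047 genes (0%) passed, with 1151 at an unadjusted p under 0.05. With a term for sex but no interaction, 8 of the 10 genes were lower in KO and 0 passed.

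**Figure D3:**
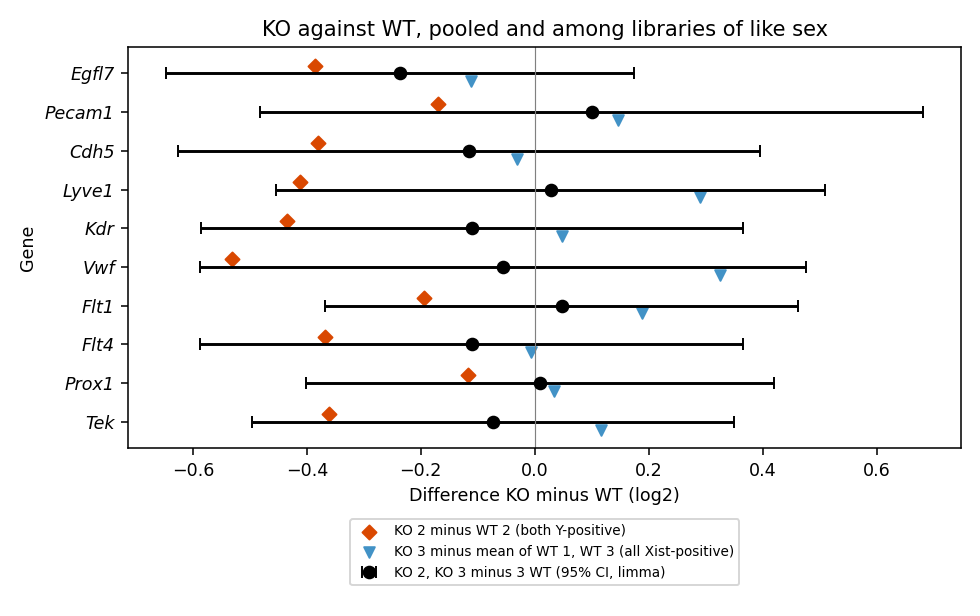
Log2 difference KO minus WT (horizontal axis) for each gene (vertical axis): black points are the 5-library fit with 95% confidence intervals from limma, diamonds KO 2 minus WT 2, and triangles KO 3 minus the mean of WT 1 and WT 3. Every interval spans 0, all diamonds lie left of 0, and 7 of the 10 triangles lie right of it.

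Other endothelial genes followed WT 2 to differing degrees. Over 87 genes in 6 lists (VEGF ligands and co-receptors, the angiopoietin pathway, surface and junction genes, transcription factors, arterial and venous genes, and lymphatic genes), 40 were higher and 47 lower in KO, and 0 passed by limma. In the same fit 1 of the 87 had an unadjusted p under 0.05, beside 491 of all 22047 genes tested. WT 2 was the highest library for 59 (67.8%). By list, that share was 87.5% for lymphatic genes, 80.8% for surface and junction genes, 77.8% for VEGF genes and 75% for the angiopoietin pathway, but 43.8% both for transcription factors and for arterial and venous genes. The gene with the unadjusted p under 0.05 was Cldn5, the tight junction claudin of endothelium, at 1.85, 1.77 and 1.71 in WT and at 1.42 and 1.23 in KO (difference -0.45 ± 0.15, SE, limma adjusted p = 0.99998, unadjusted p = 0.023). Its groups did not overlap, with KO below WT, as for 3.77% of all genes tested. Of the 26 surface and junction genes, 8 were higher and 18 lower, with a median of -0.09; without WT 2, 18 were higher and 8 lower. Cd34, a sialomucin of capillaries that fibroblasts also carry, was at 3.48 to 4.04 in WT and at 3.51 and 3.42 in KO. Ushbp1 was at 0.95 to 1.32 in WT and at 0.89 and 0.94 in KO.

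Of 16 endothelial transcription factor genes, 14 were higher in KO and 2 lower, with a median difference of 0.08, and 0 passed. The member with the smallest p was Klf2, a factor induced by blood flow that lymphocytes also express, at 2.80, 3.10 and 2.26 in WT and at 3.28 and 2.96 in KO (difference 0.40 ± 0.26, SE). Ets1, Fli1, Mef2c and Lyl1, chosen after their values were seen, were high in WT 2 and KO 2 alike: Fli1 was at 2.73 and 2.79 there and at 1.82 to 2.07 in the other 3 libraries. These 4 genes are also expressed by leukocytes, and Ptprc was high in the same 2 libraries; the part of leukocytes in these values was not tested. Sox7, a factor of the SOXF group in endothelium, was at 1.47, 1.89 and 1.30 in WT and at 1.41 and 1.25 in KO (difference -0.22 ± 0.21, SE). Of 16 arterial and venous genes, 10 were higher and 6 lower in KO, and 0 passed. Selp, the P-selectin gene of venules and platelets, was at 0.62, 0.80 and 0.57 in WT and at 0.86 and 0.83 in KO (difference 0.18 ± 0.10, SE), with both KO libraries above all WT libraries, and Ackr1, a marker of venules, was at 1.64 to 1.78 in WT and 1.78 and 1.92 in KO.

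Mural cells, which wrap vessels, were followed by 12 genes, of which 2 were higher and 10 lower in KO, with a median of -0.09 and 0 passing. Rgs5, a pericyte gene also active in smooth muscle, was at 6.57, 6.98 and 6.50 in WT and at 6.55 and 6.26 in KO (difference -0.28 ± 0.18, SE). Abcc9, a potassium channel subunit of pericytes, was at 3.74 to 4.26 in WT and at 3.70 and 3.66 in KO, below all 3 WT libraries. The gene with the smallest p in the list went the other way: Higd1b, a pericyte gene near the floor of the table, was at 0.133, 0.158 and 0.204 in WT and at 0.353 and 0.245 in KO, with a difference of 0.13 ± 0.06 (SE).

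**Figure D4:**
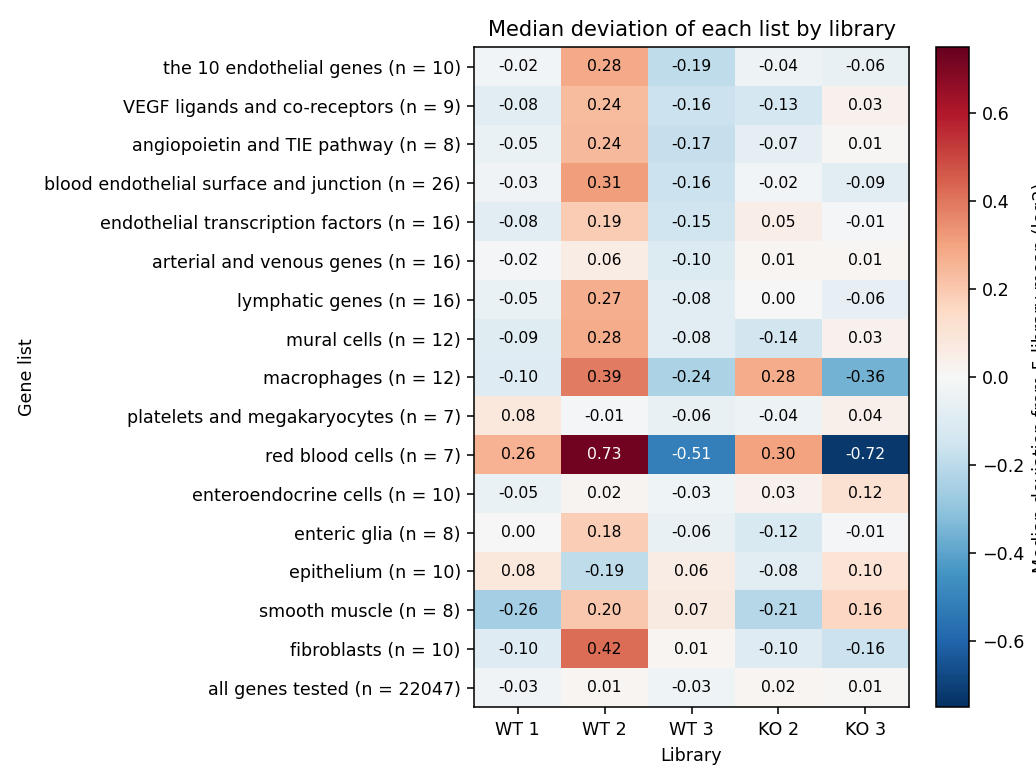
Median deviation (log2, colour and number) of each gene list from its genes' 5-library means, by library (horizontal axis), with the number of genes tested beside each list (vertical axis). The endothelial, fibroblast and mural lists are highest in WT 2; macrophage and red blood cell markers are high in both WT 2 and KO 2 and low in WT 3 and KO 3.

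In KO 1, the covered endothelial genes were low after rescaling. Pecam1 was 4.39 as deposited and 3.38 rescaled, against 3.77 to 4.51 in the other 5 libraries. Flt4 was 2.58 as deposited and 1.74 rescaled, against 2.10 to 2.58, and Prox1 was 2.09 as deposited and 1.34 rescaled, against 2.09 to 2.40. All 3 rescaled values were thus below every other library, as were those of 39.7% of the 9946 covered genes tested. Taken as natural logs, the rescaled values would be 3.35, 1.65 and 1.24 on the deposited scale. Of 34 further endothelial genes that KO 1 covers, 32 were below the WT mean, as were 63.7% of all covered genes, with a median of -0.42 against -0.07 over all covered genes. Among them Nrp2 was lowest against WT, at 2.58 rescaled, and Erg, an ETS factor that marks endothelium, was at 1.32 against 1.52 to 2.21.

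KO 1 also differed from the other libraries in tissue content and in genes of gut position. Its smooth muscle markers stood at a median of -3.33 and its fibroblast markers at -1.86 against the WT mean, both lower than the endothelial genes, and its epithelial markers stood at 0.19. Gata4, a factor of the proximal small intestine, was at 5.19 rescaled against 0.43 to 0.63 elsewhere, and Fabp6, an ileal bile acid binding protein, at 3.91 against 8.16 to 8.76. For these 2 genes it is the 5 libraries compared, and not KO 1, that differ from the duodenum named in the series text. The cause was not tested. Vegfa, the ligand for the Flt1 and Kdr products, which epithelium also makes, was the one covered gene among these endothelial lists that was higher in KO 1 than in all other libraries, at 5.26 rescaled against 4.04 to 4.43. In this single library, genotype, gut position, tissue content and rescaling cannot be told apart.

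**Figure D5:**
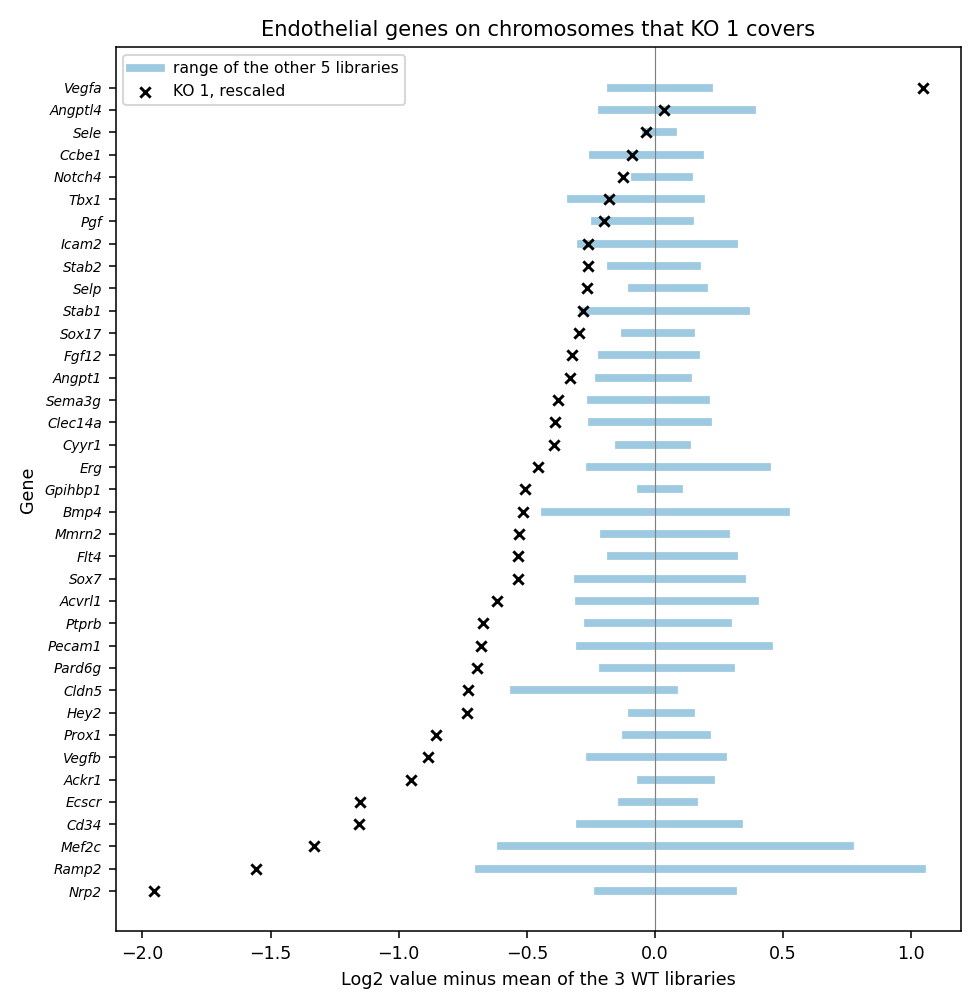
Rescaled KO 1 values (crosses) and the range of the other 5 libraries (bars) for 37 endothelial genes on chromosomes that KO 1 covers (vertical axis), as log2 value minus the mean of the 3 WT libraries (horizontal axis). In 29 of the 37, KO 1 lies below the whole range of the other libraries, and Vegfa lies above it.

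Levels were compared between genes as well, since the smallest values in the table scaled with gene length: among 2504 genes above 0 in 1 library, the median linear value fell from 0.084 in the 626 shortest (median 471 exon bases) to 0.018 in the 626 longest (median 3566 exon bases). A unit per length is not stated in the sources used here, so the order is approximate. By median over the 5 libraries on the deposited log scale, Egfl7 (4.13) and Pecam1 (3.99) led, followed by Cdh5 (3.51), Lyve1 (3.01), Kdr (2.78), Vwf (2.72), Flt1 (2.31), Flt4 (2.14), Prox1 (2.13) and Tek (2.02). The 5-library ranges of neighbours in this order overlapped for all 9 pairs. Within libraries, 5 pairs kept 1 order in all 5: Pecam1 above Cdh5 (by 0.41 to 0.81), Cdh5 above Lyve1 (0.15 to 0.66), Lyve1 above Kdr (0.035 to 0.415), Vwf above Flt1 (0.046 to 0.536) and Prox1 above Tek (0.046 to 0.387). The order of the other 4 pairs, Egfl7 and Pecam1, Kdr and Vwf, Flt1 and Flt4, and Flt4 and Prox1, differed between libraries. Egfl7 and Pecam1 had the same highest value of 4.51, in WT 1 and WT 2 respectively.

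The genes whose pattern over the 5 libraries was most like the median of the 10, by root mean square difference among 10590 genes at a mean of 2 or more, were Scube1 (0.016), Rdm1 (0.023), Tcf4 (0.026), Fam171a1 (0.027) and Dnase1 (0.029), in log2 units. Scube1, the nearest of these, was at 2.83, 3.13 and 2.63 in WT and at 2.83 and 2.78 in KO. Among the 10, Kdr lay closest to their median at 0.045 and Vwf and Egfl7 farthest, at 0.192 each. With 5 libraries such likeness is a description only.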

How the data were processed

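The table deposited by the authors holds log values for 6 libraries, taken here as log2(abundance + 1). Per the submitters' processing notes, reads were placed on mm10. Neither the aligner and counting tool with its strand setting nor the unit, log base and added constant is given in the sources used here. Of 32245 rows, 26 with a date in place of a symbol were left out. Positions came from GENCODE vM21, which uses the same assembly. KO 1 was rescaled by 2.12, the median over 2160 covered genes at 4 or more of its linear value divided by the 5-library mean.

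The 2 KO libraries were set against the 3 WT libraries with limma (version 3.58.1, R 4.3.3), using a trended variance prior and 2-sided tests, on genes above 0 in at least 3 of 5 libraries, with Benjamini-Hochberg adjustment over 22047 genes and a threshold of 0.05. The fit was run on simulated data in which genes were drawn independently. Shifts of a library shared by many genes, such as that of WT 2, were not simulated. The genes and lists were chosen with earlier results of these data known. From each list, up to 4 genes with the smallest p could be named, and the 5 genes nearest in pattern among those at a mean of 2 or more, predicted genes and antigen receptor segments left out. Ptprc, Erg, Eif2s3y, Vegfa, Ppbp, Gp6, Treml1 and the 4 leukocyte-shared factors were added after values were seen. Alternatives were other library sets, scalings, filters, constants, log base, variance models, the replicate block and sex terms; the sex term, its interaction and the values split by sex were added after seeing the data.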

Additional observations from a re-analysis of the deposited data

Results flagged for a closer look

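In KO 1, which the comparison of KO with WT does not use, 2 covered genes of the endothelial and mural lists exceeded every other library after rescaling. Vegfa stood at 5.26 against a highest WT value of 4.43. Higd1b, a pericyte gene near the floor of the table, stood at 0.376 against 0.204 in WT and 0.353 in KO 2. Both values depend on the factor used to rescale KO 1.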

How the results depend on the processing

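Under 19 other settings for each of the 10 genes, 0 of 190 values passed by limma (smallest adjusted p 0.718), and 156 kept their direction. The count of 1 gene past the threshold over all genes was 0 with all 6 libraries as deposited, with the replicate block, with no filter, with a mean of at least 1, with an added constant of 0.1, with the Xist covariate, with the sex term and without any 1 of the 5 libraries (0 to 0); the cause was not tested, beyond fewer samples in the last.

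Leaving out each library in turn gave -0.28 to 0.066 for Cdh5, -0.38 to -0.12 for Egfl7, -0.055 to 0.15 for Flt1, -0.20 to 0.043 for Flt4, -0.24 to 0.056 for Kdr, -0.081 to 0.21 for Lyve1, -0.076 to 0.32 for Pecam1, -0.068 to 0.11 for Prox1, -0.17 to 0.023 for Tek and -0.34 to 0.23 for Vwf; with 1 KO library left, its spread is taken from the WT libraries. Among the other settings, the sign turned for Flt1 (-0.74), Flt4 (0.027), Lyve1 (-1.003) and Prox1 (-0.030) with all 6 libraries as deposited, where the zeros of KO 1 enter as values. It turned for Pecam1 (-0.16) and Prox1 (-0.28) with KO 1 rescaled; for Flt1 (-0.009), Lyve1 (-0.029) and Prox1 (-0.048) with median centring; and for Flt1 (-0.010), Lyve1 (-0.022) and Prox1 (-0.048) with quantile normalization. It also turned for Lyve1 (-0.010) and Prox1 (-0.030) with the Xist covariate and with the sex term (-0.011 and -0.031).

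With the replicate block, Lyve1 (-0.081) and Prox1 (-0.036) turned and 0 of the 10 genes passed. Deviations from the group means correlated across genes at 0.28 for WT 2 and KO 2 and at 0.33 for WT 3 and KO 3. These 2 values are linked, because with 2 KO libraries the deviation of KO 3 is minus that of KO 2. Number 2 is also the pair with Y-linked transcripts, and with 2 pairs the numbers were not taken to pair the libraries. Depth is unknown, so no counting limit can be given.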
